A study of Mus musculus with 12 samples.

Results

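The genes described here are 10 core components and outputs of the circadian clock, namely Per1, Per2, Per3, Cry1, Cry2, Nr1d1, Nr1d2, Dbp, Tef and Clock. They were chosen by gene symbol among the 56748 genes of the deposited table, each symbol matched 1 row, and all 10 were read in all 12 libraries. RNA was sequenced from 2-week-old mice as rod TRAP RNA, the mRNA bound to HA-tagged ribosomes of rod photoreceptors, and as RNA of the whole retina before the pull-down. The control mice (Het) had the genotype RiboTag;Shp2 fl/+;i75-Rod-Cre and the knockout mice (KO) RiboTag;Shp2 fl/fl;i75-Rod-Cre, so that both carried the ribosome tag and a Cre active in rods, and the controls lacked 1 copy of Shp2 in rods. The controls were littermates, although their sample titles call them wt and their genotype label says Shp2_Rodhet. There were 3 libraries in each of the 4 groups (Het rods, KO rods, Het retina, KO retina), made from poly(A) RNA after cycloheximide perfusion and flash freezing. Neither the hour at which the retinas were collected nor the number of mice behind a library is given in the sources used here, so p-values measure the spread between these libraries.

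In the mammalian clock, the proteins CLOCK and BMAL1 (gene Arntl) bind E-box sequences and switch on the Per and Cry genes, whose proteins then return to repress CLOCK and BMAL1. The same pair drives Nr1d1 and Nr1d2, which encode the repressors REV-ERBα and REV-ERBβ of Arntl, and Dbp and Tef, which encode bZIP factors that act on D-box sequences of output genes. Most of these mRNAs rise and fall over the day in clock tissues, with Arntl in opposite phase to Dbp and the Per genes, and the retina holds a clock of its own. Per1 is also known to be induced within a short time by light and by cAMP signalling through CREB.

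The known regulatory letters were looked up in the 250 bases before each annotated start, taken from RefSeq (GRCm38.p6), because the clock acts on its members through such elements. Other spellings and more distant bases were not searched, so an absence covers these windows only. A window was found for 9 of the 10 genes, with 13 start sites in all, and Per2 had no entry. For Cry2 and Nr1d1, the bases after the start were not found in a GENCODE transcript of the gene. The E-box CACGTG was present before the first of 2 starts of Per1, before Cry1 and before both starts of Tef. It was present in 6.02% of the 32851 windows of the table. The GC content of the 13 windows ran from 49.2% to 77.6%, against a median of 52.4% over all windows, and the shares were not adjusted for it. The D-box (TTATGTAA or TTACGTAA, both strands) was present before Per3, at 2 places, and in 0.932% of all windows. Neither the cAMP response element TGACGTCA (1.55% of windows) nor the letters TAGGTCA, part of the element bound by the REV-ERB proteins (2.23% of windows), occurred in these 13 windows. The windows of Per1, Cry1 and Per3 are shown, 5′ to 3′ on the strand of the gene, with the matched motif in capitals. Per1 was the member with the largest difference between KO and Het rods, Cry1 the only one called higher in rods than in retina in both genotypes, and Per3 the one with D-boxes.
Per1, chr11:69098699-69098948, plus strand: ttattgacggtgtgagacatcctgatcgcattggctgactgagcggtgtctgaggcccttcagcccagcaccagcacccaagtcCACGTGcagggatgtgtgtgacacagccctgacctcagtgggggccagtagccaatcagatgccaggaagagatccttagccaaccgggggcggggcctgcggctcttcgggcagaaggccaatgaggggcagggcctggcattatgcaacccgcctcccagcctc
Cry1, chr10:85185055-85185304, minus strand: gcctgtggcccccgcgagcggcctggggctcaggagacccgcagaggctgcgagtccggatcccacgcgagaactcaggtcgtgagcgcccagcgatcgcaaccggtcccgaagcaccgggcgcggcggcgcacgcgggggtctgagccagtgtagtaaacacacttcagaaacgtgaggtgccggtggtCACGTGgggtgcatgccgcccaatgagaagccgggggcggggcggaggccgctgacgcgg
Per3, chr4:151044666-151044915, minus strand: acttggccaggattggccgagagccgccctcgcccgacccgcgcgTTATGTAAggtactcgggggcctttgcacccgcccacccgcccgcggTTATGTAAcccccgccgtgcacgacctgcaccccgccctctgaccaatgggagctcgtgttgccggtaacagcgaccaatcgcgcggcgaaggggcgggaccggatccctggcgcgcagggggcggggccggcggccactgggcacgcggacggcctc
A match is a description of these letters and was not read as a bound site.

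The deposited values are read counts multiplied by 1 factor per library and rounded, so that the libraries of a fraction share nearly the same total (16263948 to 16265259 in rods, 14525527 to 14527992 in retina). Dividing by the estimated factors gave 11890000 to 25280000 reads in rod libraries and 9980000 to 19230000 in retina libraries. At these depths 3 reads make between 1.2e-05% and 3e-05% of a library, and this limit covers counting error only. All log2 fold changes were taken after TMM scaling as log2(value + 2) and tested with limma over all genes past a filter on low values, with Benjamini-Hochberg adjustment, and a gene was called where the adjusted p was under 0.05 and the log2 fold change passed 0.5 in either direction. Ptpn11, which encodes Shp2, had values of 2511, 2439 and 2431 in Het rods, against 1735, 2139 and 1971 in KO rods. Its log2 fold change was -0.26 (SE 0.09, limma adjusted p = 0.064), and reads from the floxed part cannot be separated from the rest. The rod markers Gnat1, Pde6b, Sag, Nrl and Nr2e3 were higher in Het rods than in Het retina, with log2 fold changes of 1.61 for Nr2e3 to 1.93 for Gnat1. All 4 markers each of cones, Müller glia, amacrine cells, ganglion cells and microglia were depleted from Het rods relative to Het retina, as were 3 of 4 markers of bipolar cells (Prkca was not called, with a log2 fold change of 0.01), and the microglial markers together reached at most 6.15e-05% of a rod library. Markers of the lens varied from 0.000723% to 4.80% of a retina library, and their part in the results below was not tested. Between KO and Het rods, none of these rod markers was called. Of the 4 markers each of Müller glia and of amacrine cells, 1 of each was called higher, beside 11.2% of all genes tested. The amacrine markers together made up 0.00306% to 0.00323% of Het rod libraries and 0.00370% to 0.00467% of KO rod libraries, and their part in the genotype differences was not tested.

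Libraries also differed in a way that bears on every clock gene below. When genes were ordered by the GC content of their transcript, the median deviation of the 10% with the highest GC content, minus that of the 10% with the lowest, was -0.81, -0.23 and -0.42 on the log2 scale in Het rods, whereas it was 0.42, 0.76 and 0.28 in KO rods. The trend therefore had 1 sign in each genotype of the rod libraries and cannot be told apart from genotype there. In retina it was -0.24, 0.86 and -0.84 in the Het libraries and 0.01, -0.63 and 0.90 in the KO libraries, so that each genotype held a library with a strong positive and one with a strong negative trend. Among the clock genes, transcript GC content was 61.6% for Dbp, 59.4% for Per1, 56.8% for Nr1d1, 55.6% for Cry2 and 54.3% for Per2. It was 53.1% for Tef, 52.4% for Per3, 51.6% for Cry1, 41.8% for Nr1d2 and 40.9% for Clock. Each comparison was therefore fitted a further time after subtraction of the GC trend of every library. Reads of 4 members can include reads of a gene on the other strand, since the library kit keeps no strand: 18.0% of the exonic bases of Dbp are shared with Sphk2, 8.55% of those of Nr1d1 with Thra, 4.67% of those of Cry2 with D930015M05Rik and 2.45% of those of Tef with Gm17597.

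All 10 clock genes were detected in every library, and their levels per transcript length (the deposited value per kilobase, at a library total of 1000000) differed widely. In Het rods, Nr1d2 had the highest level, 39.5 ± 5.60 per kilobase (SD, n = 3), followed by Cry1 (30.8 ± 2.25), Tef (29.4 ± 1.11) and Nr1d1 (26.6 ± 5.39). The ranges of the latter 3 overlapped from one neighbour to the next. Clock (8.37 ± 0.843), Cry2 (7.17 ± 0.352), Per1 (5.45 ± 1.04), Dbp (4.89 ± 0.586) and Per3 (4.15 ± 0.409) came next, and Per2 was the lowest at 0.685 ± 0.159. Neighbouring ranges overlapped for Per1 with Dbp and for Dbp with Per3. In Het retina, Tef led with 66.3 ± 3.61 per kilobase (SD, n = 3), ahead of Nr1d2 (60.1 ± 12.7) and Nr1d1 (51.1 ± 25.4), and Per2 again was last at 3.98 ± 0.946. In that order only the steps from Dbp to Cry1 and from Per1 to Per2 were free of overlap.

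**Figure D1:**
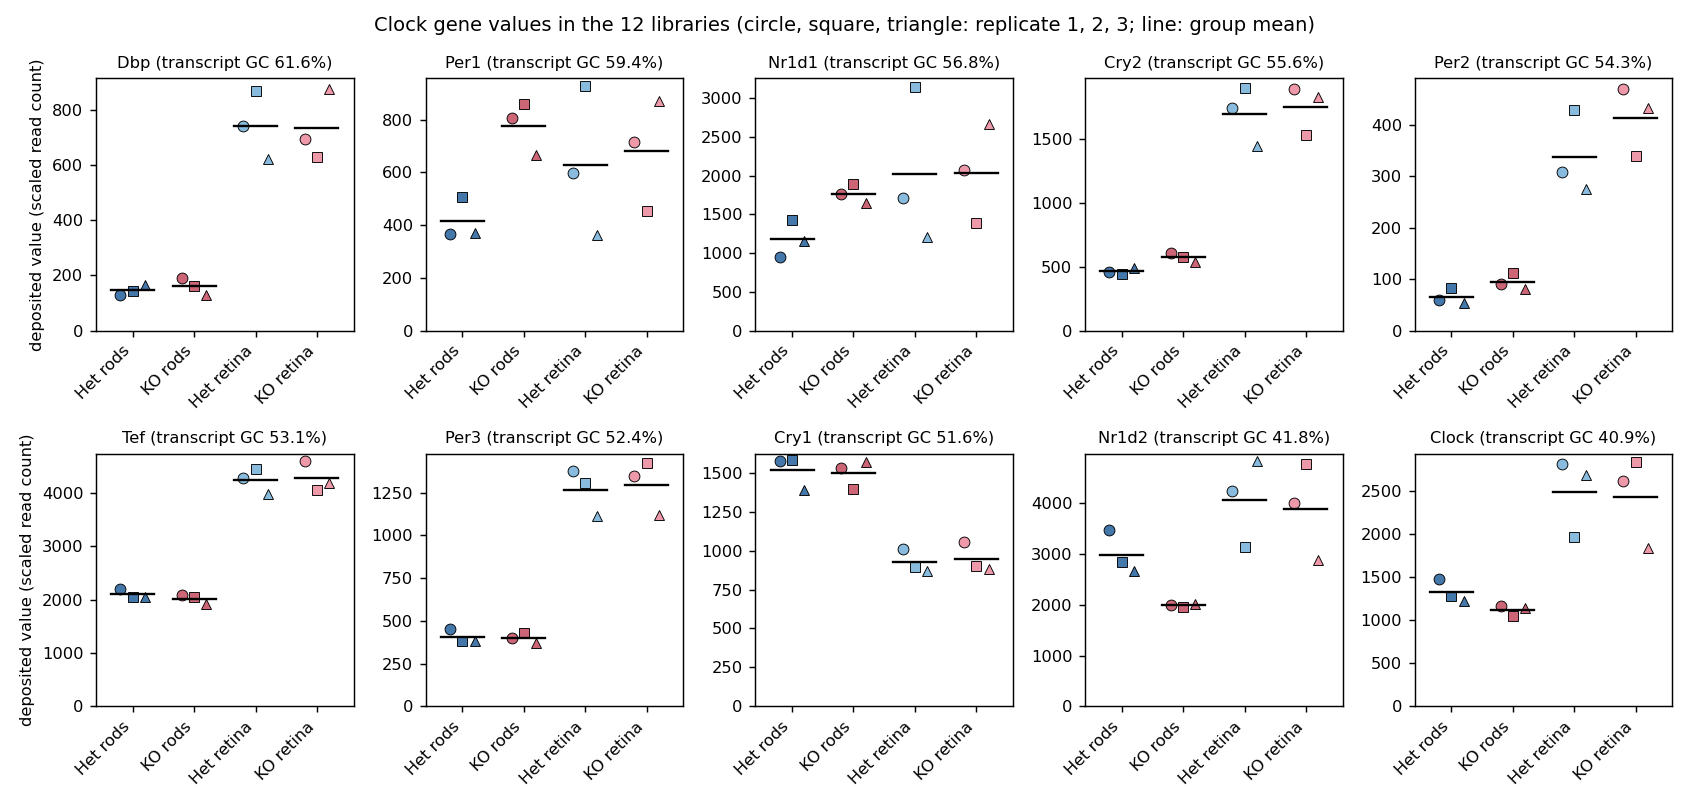
Deposited values (read counts times 1 factor per library) of the 10 clock genes in all 12 libraries, 1 panel per gene from the highest to the lowest transcript GC content, with the 4 groups on the x axis, 1 point per library and a line at the group mean. Per1 is higher in all 3 KO rod libraries (665 to 859) than in the Het rod libraries (367 to 506), whereas in retina the points of Per1 and Nr1d1 spread widely within each genotype.

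The first question was how the clock of rods stands against that of the whole retina. In Het mice, Cry1 was the only member that was higher in rods, whereas Dbp, Per2, Cry2, Per3, Tef and Clock were lower. Thus 1 of 10 members was called higher, beside 21.6% of the 16110 genes tested, and 6 were called lower, beside 36.8%. Because TRAP RNA is ribosome-bound and the retina RNA is not, and because rods are themselves most cells of a mouse retina, a lower level in rods, fewer cells of a type and less RNA per cell cannot be told apart.

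Cry1, a repressor of CLOCK and BMAL1, had values of 1578, 1584 and 1389 in Het rods and 1011, 897 and 872 in Het retina. In KO mice the values of Cry1 were 1532, 1394 and 1572 in rods and 1058, 904 and 882 in retina. In both genotypes all rod libraries lay above all retina libraries. The log2 fold change of Cry1 was 0.96 (SE 0.11, limma adjusted p = 0.0001) in Het and 1.04 (SE 0.12, limma adjusted p = 6.3e-05) in KO mice. The related gene Cry2 ran the other way, with 457, 445 and 489 in Het rods against 1739, 1899 and 1442 in Het retina. In KO mice Cry2 had 606, 577 and 539 in rods and 1890, 1533 and 1825 in retina. The log2 fold change of Cry2 was -1.61 (SE 0.14) in Het and -1.23 (SE 0.13) in KO mice, and both were called.

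The 3 Period genes, which encode the partners of the cryptochromes, were not alike. Per2 had 60, 82 and 53 in Het rods and 308, 428 and 276 in Het retina. In KO mice the values of Per2 were 90, 111 and 80 in rods and 469, 339 and 432 in retina. Every rod library was thus below every retina library, with log2 fold changes of -2.09 (SE 0.25) in Het and -1.75 (SE 0.20) in KO mice. Per3 had 451, 384 and 380 in Het rods, 401, 429 and 371 in KO rods, 1374, 1306 and 1114 in Het retina and 1346, 1422 and 1116 in KO retina. Its rod values again did not reach the retina values, and the log2 fold changes were -1.39 (SE 0.13) in Het and -1.31 (SE 0.12) in KO mice. Per1 stood apart from both. It had 367, 506 and 370 in Het rods, against 808, 859 and 665 in KO rods, while retina had 597, 928 and 362 in Het retina and 714, 455 and 871 in KO retina. In Het mice the log2 fold change of Per1 between rods and retina was -0.26 (SE 0.31, limma adjusted p = 0.49), and it was 0.33 (adjusted p = 0.052) after removal of the GC trend. In KO mice it was 0.61 (SE 0.24, limma adjusted p = 0.047), a call that was lost under relative log expression scaling (adjusted p = 0.062), with a pseudocount of 0.5 (adjusted p = 0.052), with the replicate number as a block (adjusted p = 0.061) and when only library totals were used (log2 fold change 0.07). The call was also lost when any library of the KO groups other than KO retina replicate 3 was left out. In Het mice, leaving out Het retina replicate 3 gave a called log2 fold change of -0.65 for Per1 and of -0.79 for Nr1d1.

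Dbp and Tef encode related bZIP factors, and both were lower in rods. Dbp had 129, 145 and 164 in rods of Het mice, 189, 163 and 129 in KO rods, 741, 868 and 621 in Het retina and 693, 630 and 877 in KO retina. The fractions did not overlap, and the log2 fold change of Dbp was -2.08 (SE 0.18) in Het and -1.81 (SE 0.20) in KO mice. Tef had 2196, 2060 and 2056 in Het rods, 2082, 2052 and 1915 in KO rods, 4280, 4446 and 3990 in Het retina and 4599, 4061 and 4199 in KO retina. The fractions of Tef did not overlap either, and its log2 fold change was -0.76 (SE 0.10) in Het and -0.71 (SE 0.11) in KO mice. Clock, the activator, had 1477, 1281 and 1222 in Het rods, 1172, 1048 and 1139 in KO rods, 2817, 1970 and 2687 in Het retina and 2623, 2843 and 1844 in KO retina. Its log2 fold change was -0.64 (SE 0.15) in Het and -0.72 (SE 0.16) in KO mice.

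Neither REV-ERB gene was called between the fractions in Het mice. Nr1d1 had 949, 1425 and 1160 in Het rods, 1761, 1887 and 1651 in KO rods, 1708, 3144 and 1212 in Het retina and 2068, 1388 and 2663 in KO retina. The rod and retina values of Nr1d1 overlapped in both genotypes, with log2 fold changes of -0.43 (SE 0.32, limma adjusted p = 0.27) in Het and 0.21 (SE 0.22, limma adjusted p = 0.42) in KO mice. Nr1d2 had 3472, 2849 and 2661 in Het rods, 1999, 1957 and 2013 in KO rods, 4242, 3134 and 4830 in Het retina and 4011, 4788 and 2882 in KO retina. It was not called in Het mice, at -0.18 (SE 0.17, limma adjusted p = 0.40), and was called lower in KO rods than in KO retina, at -0.56 (SE 0.16, limma adjusted p = 0.014). In KO mice 2 of 10 members were called higher in rods (beside 25.8% of 16121 genes) and 7 lower (beside 36.5%). Where only library totals were used, the median of all genes moved from -0.11 to -0.51 in Het mice, and 8 members were called lower.

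**Figure D2:**
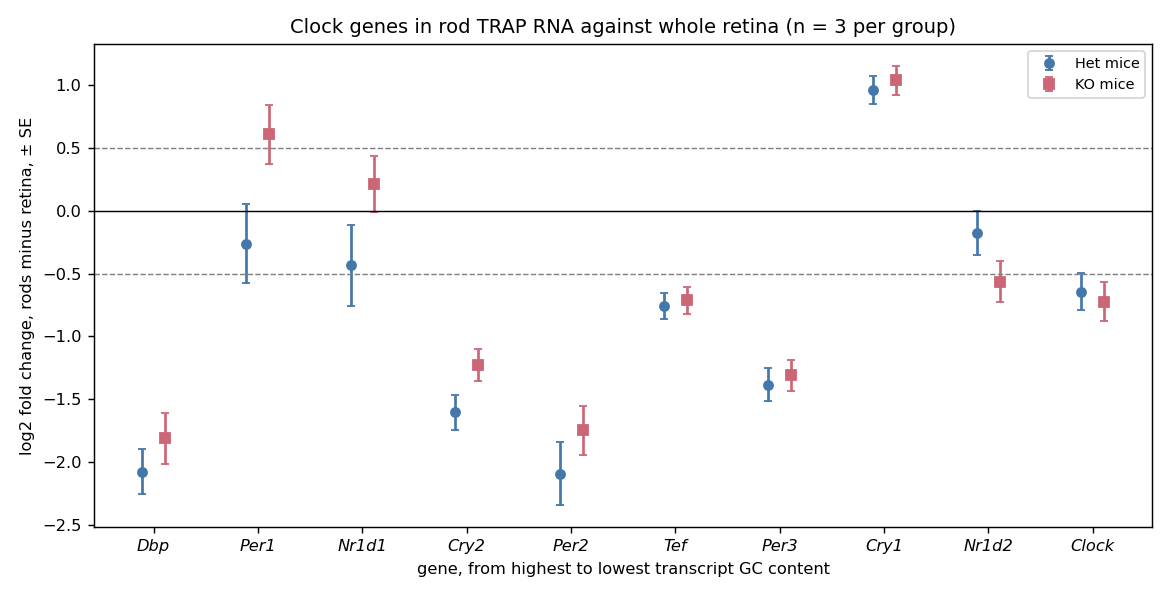
Log2 fold change of the 10 clock genes in rod TRAP RNA against whole retina (y axis, limma estimate ± SE, 3 libraries per group) for Het mice (circles) and KO mice (squares), with genes ordered by transcript GC content on the x axis and dashed lines at the fold limit of 0.5. Cry1 lies near 1 in both genotypes, Dbp, Cry2, Per2, Tef, Per3 and Clock lie below -0.5, and the estimates of Per1 and Nr1d1 have opposite signs in the 2 genotypes.

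Other genes of the clock were read from a list of 19. In Het mice 5 were called higher (beside 21.6% of all genes tested) and 9 lower (beside 36.8%) in rods than in retina, with a median log2 fold change of -0.26 over the list and of -0.11 over all genes tested. Arntl, the partner of Clock, was higher in rods, with 3117, 2997 and 2650 in Het rods against 1746, 1659 and 1389 in Het retina, a log2 fold change of 1.12 (SE 0.12). Arntl and Clock thus lay on opposite sides of the retina level. Rora, which encodes an activator of Arntl, was also higher in rods (0.87, SE 0.16), as were Usp2 (0.81, SE 0.16) and Bhlhe41 (0.71, SE 0.12). The lower genes included Bhlhe40 (-4.84, SE 0.20), which encodes a close relative of the Bhlhe41 product, Ciart (-3.05, SE 0.28), Hlf (-2.52, SE 0.12), related to Dbp and Tef, and Npas2 (-2.08, SE 0.31), which encodes a substitute for CLOCK. Bhlhe40 had 27, 26 and 37 in Het rods and 971, 1169 and 1082 in Het retina. Of 5 outputs that are rhythmic in the retina, 4 were tested and 2 called higher in Het rods (beside the same 21.6%), namely Drd4 (1.29, SE 0.20), which encodes the dopamine D4 receptor, and Ppargc1a (1.11, SE 0.14). Aanat, the enzyme that makes the precursor of melatonin, was between 0 and 7 in every library and was not tested.

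The second question was whether clock mRNA on rod ribosomes differed between KO and Het mice. The mean value of Per1 in KO rods was 1.88 times and that of Nr1d1 1.499 times the mean in Het rods, Nr1d2 was at 0.665 times, and Per3, Cry1 and Tef were nearly level. Thus 2 of 10 members were called higher, beside 11.2% of the 13055 genes tested, and 0 lower, beside 1.91%. The mean value of Per1 was 414 ± 79.4 (SD, n = 3) in Het rods and 777 ± 101 in KO rods. Its log2 fold change was 0.995 (SE 0.15, limma adjusted p = 0.0034). For Nr1d1 the means were 1178 ± 239 (SD, n = 3) and 1766 ± 118, and the log2 fold change was 0.68 (SE 0.14, limma adjusted p = 0.0088). Both calls held with each rod library left out in turn.

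Several other members shifted without being called. Nr1d2 had 1957 to 2013 in KO rods against 2661 to 3472 in Het rods, and its log2 fold change of -0.50 (SE 0.10, limma adjusted p = 0.0054) passed the p threshold and lay just inside the fold limit. Under relative log expression scaling it was -0.50 with the limit just passed, and with library totals it was -0.58, so that Nr1d2 was called lower by both. It was called as well without Het rod replicate 2 (-0.53), Het rod replicate 3 (-0.59) or KO rod replicate 2 (-0.51). Cry2 had a log2 fold change of 0.39 (SE 0.10, limma adjusted p = 0.020), under the fold limit. Per2 had 0.61 (SE 0.22, limma adjusted p = 0.059), and was called with the replicate number as a block (adjusted p = 0.025) and without Het rod replicate 2 (log2 fold change 0.77) or KO rod replicate 3 (log2 fold change 0.74). The log2 fold change was 0.20 (SE 0.18) for Dbp, 0.07 (SE 0.12) for Per3, 0.07 (SE 0.08) for Cry1, 0.02 (SE 0.08) for Tef and -0.16 (SE 0.09) for Clock. After scaling, the 3 KO and 3 Het rod values did not overlap for 6 of 10 members, higher for Per1, Nr1d1, Per2 and Cry2 and lower for Nr1d2 and Clock, whereas 44.0% of all genes tested did not overlap either.

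The sign of these differences split with transcript GC content. The 8 members with the higher GC content all had positive log2 fold changes, and the 2 with the lowest had negative ones. Among the 8, the estimates of Tef, Per3 and Cry1 were smaller than their SE and were negative with library totals alone. Across the 10 genes, which share the same 6 libraries, Pearson's r between GC content and log2 fold change was 0.77, and it was -0.06 after the trend was removed. With the trend removed, the log2 fold change of Per1 fell to 0.37 (SE 0.10, limma adjusted p = 0.038), which passed the p threshold and not the fold limit. Nr1d1 then had 0.26 (SE 0.08, limma adjusted p = 0.078), Nr1d2 -0.17 (SE 0.08, adjusted p = 0.19), Cry2 0.06 (SE 0.10, adjusted p = 0.74) and Per2 0.39 (SE 0.20, adjusted p = 0.24). Clock turned from -0.16 to 0.18 (SE 0.07, adjusted p = 0.14). Dbp turned from 0.20 to -0.56 (SE 0.16, limma adjusted p = 0.049) and became the only member called, as 1 of 387 genes. Dbp has the highest GC content of the 10, and in retina the same removal turned its deviation from the group mean from 0.23 to -0.39 in Het replicate 2 and from 0.33 to -0.19 in KO replicate 3. Subtracting a curve that follows GC content also takes away any genotype difference that goes with GC content, and these cannot be told apart in rods.

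**Figure D3:**
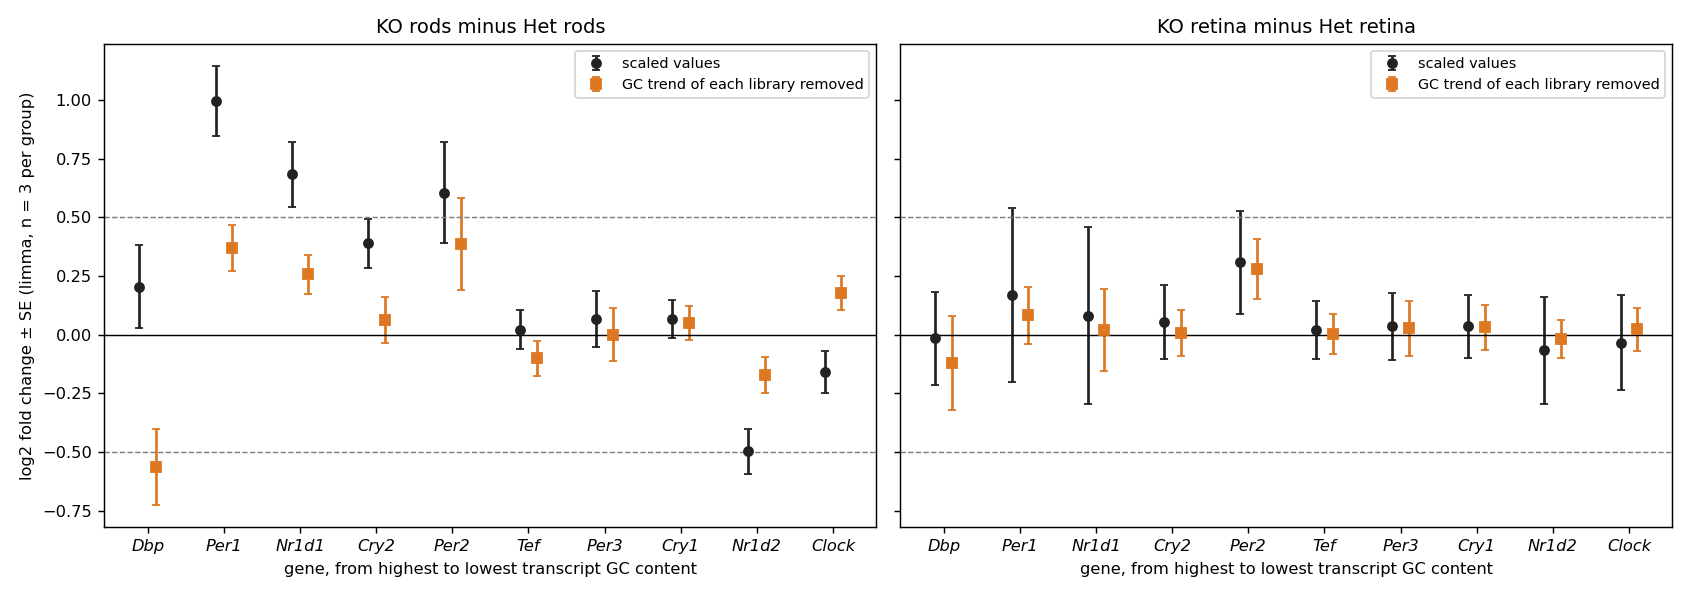
Log2 fold change between KO and Het mice (y axis, limma estimate ± SE, 3 libraries per group) for the 10 clock genes, ordered on the x axis from the highest to the lowest transcript GC content, in rods (left) and whole retina (right), from scaled values (circles) and after removal of the GC trend of each library (squares). In rods, Per1 goes from 0.995 to 0.37 and Dbp from 0.20 to -0.56 on removal of the trend, and in retina no estimate passes the fold limit of 0.5 drawn as dashed lines.

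In whole retina, no clock gene was called between KO and Het mice (0 of 10, beside 0% of the 16863 genes tested). Limma found 140 of those genes at an unadjusted p under 0.05, fewer than that threshold gives on average with no difference at all. None of the 10 was among them, which does not show that they were level. The largest estimate was that of Per2, 0.31 (SE 0.22), and the others lay between -0.07 for Nr1d2 (SE 0.23) and 0.17 for Per1 (SE 0.37). The standard errors of Per1 and Nr1d1 were 0.37 and 0.38 in retina, against 0.15 and 0.14 in rods, so the retina comparison was the less precise of the pair. The groups overlapped for all 10 members, whereas 3.5% of all genes did not overlap. In the test of the KO effect in rods minus that in retina, 0 of 10 members were called (beside 0% of 17192 genes, of which 601 had an unadjusted p under 0.05). The estimate of that difference was 0.72 for Per1 (SE 0.43, limma adjusted p = 0.80), 0.50 for Nr1d1 (SE 0.43), -0.54 for Nr1d2 (SE 0.26) and 0.20 for Per2 (SE 0.31). The rise of Per1 and Nr1d1 was therefore not shown to be particular to rods.

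The third question was whether single libraries differ in clock genes as unequal times of collection would make them differ. Within groups, the median SD of the 10 members on the log2 scale was 0.23, against 0.30 for all 17192 genes past the filter, and 2 of the 10 lay above the latter. In rods the median was 0.14 against 0.22, and in retina 0.27 against 0.30. The reference in both fractions was the same 17192 genes, filtered over the 12 libraries together. Only 13055 genes passed the filter in the rod libraries alone, so the rod reference includes genes of low value there. The gap to genes of similar level was not tested. The gap to all genes also depended on the pseudocount. With a pseudocount of 8 the medians were 0.231 against 0.251, and 4 of the 10 lay above the latter. In rods they were then 0.136 against 0.178, and in retina 0.267 against 0.272 with 5 of the 10 above. The spread was unequal among members. In retina Nr1d1 (0.60) and Per1 (0.59) varied more than 86.1% and 85.3% of genes, and Nr1d2 (0.33), Clock (0.29), Per2 (0.28) and Dbp (0.26) lay near the middle. Tef (0.07), Cry1 (0.10), Per3 (0.14) and Cry2 (0.18) varied less than most genes.

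Some members, but not all, shared the retina libraries in which they were high and low. Per1 was highest in Het replicate 2 (928) and KO replicate 3 (871) and lowest in Het replicate 3 (362) and KO replicate 2 (455). Nr1d1, Dbp and Cry2 had the same highest and lowest library within each genotype, save that Cry2 was highest in replicate 1 of the KO retina (1890). Clock was lowest, and Nr1d2 too, in exactly the libraries where Per1 was highest. Other members departed from this order. Per2 and Tef were highest in KO retina replicate 1 (469 and 4599). Per3 was highest in KO retina replicate 2 (1422) and lowest in KO retina replicate 3 (1116). Cry1 was highest in replicate 1 of Het and KO retina (1011 and 1058). In Het rods, Per1, Nr1d1 and Per2 were highest in replicate 2 as well (506, 1425 and 82), as they were in Het retina. In KO mice, Per1 was highest in rod replicate 2 (859) and lowest in retina replicate 2. Across retina libraries the highest value was 2.56 times the lowest for Per1 and 2.59 times for Nr1d1, and 1.15 times for Tef, 1.21 times for Cry1, 1.28 times for Per3 and 1.41 times for Dbp. The retina libraries with high Per1 were those with the strongest positive GC trend (0.86 and 0.90), and those with low Per1 had the strongest negative one (-0.84 and -0.63). Over the 10 members, the deviation from the group mean correlated with GC content at r = 0.82 in Het retina replicate 2 and 0.90 in KO retina replicate 3, and at r = -0.82 in Het retina replicate 3 and -0.84 in KO retina replicate 2. With the GC trend removed, the SD in retina fell from 0.60 to 0.27 for Nr1d1, from 0.59 to 0.17 for Per1, from 0.33 to 0.06 for Nr1d2 and from 0.29 to 0.09 for Clock. That of Dbp went from 0.26 to 0.29, and the median of the 10 was 0.13 against 0.21 for all genes. Nr1d1 and Dbp then still varied more than 64.4% and 67.3% of genes. Per1, Nr1d1 and Per2 stayed above the group mean in Het replicate 2 of both fractions. Their deviations in rods and retina were 0.16 and 0.12 for Per1, 0.18 and 0.36 for Nr1d1 and 0.28 and 0.15 for Per2. Those of Dbp, Cry2, Tef and Per3 were negative in both. Unequal collection times were not tested.

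**Figure D4:**
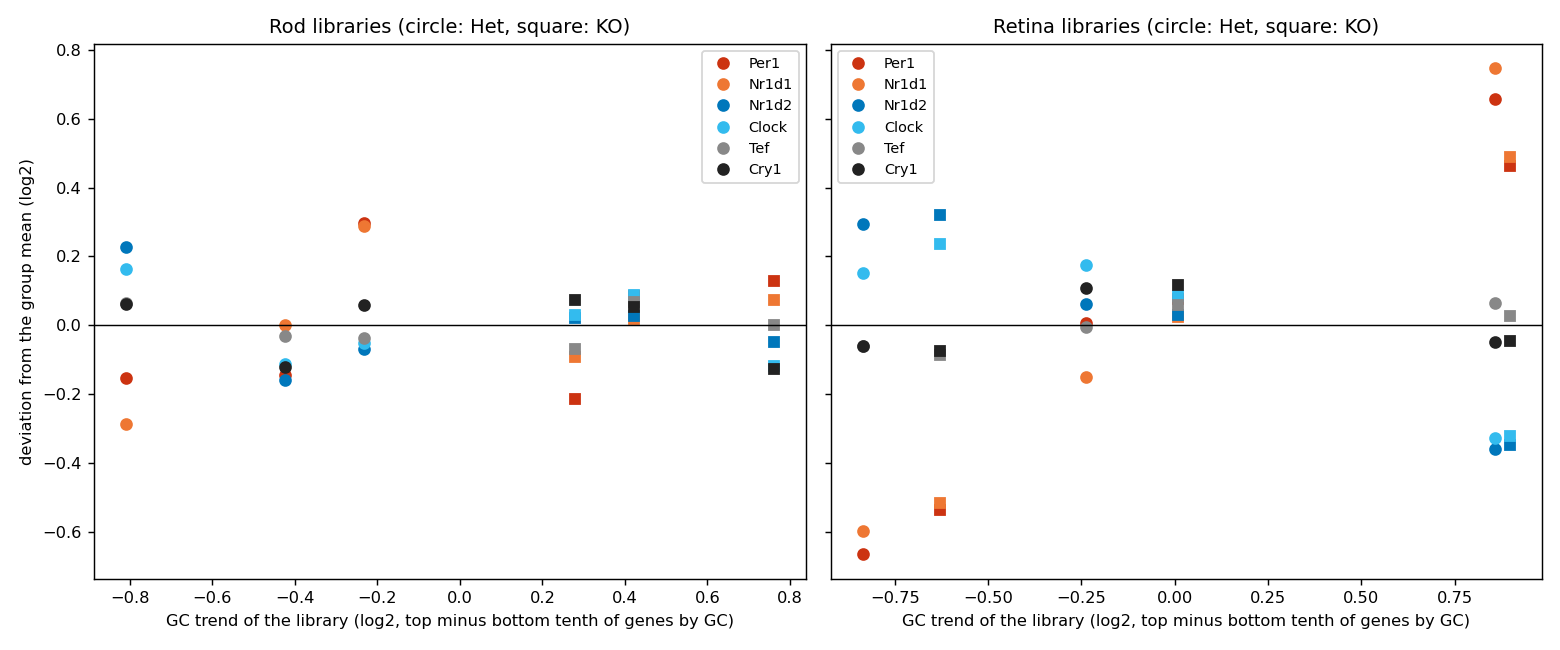
Deviation of 6 clock genes from the mean of their group (y axis, log2) against the GC trend of each library (x axis, median deviation of the 10% of genes highest in GC content minus that of the lowest 10%, log2), in rod libraries (left) and retina libraries (right), with circles for Het, squares for KO and 1 colour per gene. In retina, Per1 and Nr1d1 rise and Nr1d2 and Clock fall from the libraries at -0.84 and -0.63 to those at 0.86 and 0.90, whereas Tef and Cry1 stay near 0.

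Genes with the profile most like that of the 3 widest members were then sought over the 12 libraries, by Pearson's r of the deviations from the group means. The closest to Nr1d1 was Retreg2 (r = 0.998), followed by Ciz1, Cic, Gm3839 and Arl6ip4 (the lowest at r = 0.99). The closest to Per1 were Abhd11, Coro2b, Asic4, Raly and Miga2, all at r = 0.99, and those closest to Per2 were Jph3 (r = 0.96), Irf7, Kiss1r, Fam174c and Gpr153 (r = 0.94). No gene of the clock lists was among these 15. Those lists hold 10 members and 19 other genes among 17192 searched, so an absence was likely beforehand and decides nothing. The transcript GC content of the 15 ran from 51.8% for Gm3839 to 61.6% for Cic. After removal of the GC trend, the closest were Gm12286 for Nr1d1 (r = 0.98), E130308A19Rik for Per1 (r = 0.96) and Tmem251 for Per2 (r = 0.96).

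Clock genes with known opposite phase were compared in the same libraries. Arntl, which runs opposite to Dbp and Per genes in clock tissues, had 3117, 2997 and 2650 in Het rods, against 2579, 2597 and 2748 in KO rods, a log2 fold change of -0.06 (SE 0.08, limma adjusted p = 0.61). Hlf, Ciart and Nfil3 had log2 fold changes of 0.05 (SE 0.12), 0.38 (SE 0.30) and 0.28 (SE 0.11) in KO against Het rods. Of the 19 other clock genes, 17 were tested there and 0 were called, beside 11.2% of all genes called higher and 1.91% lower. The median log2 fold change of the 17 was 0.19, against -0.01 for all genes. Csnk1d (0.33, SE 0.07), Btrc (0.30, SE 0.08), Rora (-0.32, SE 0.09) and Bhlhe41 (-0.33, SE 0.10) passed the p threshold of limma and lay inside the fold limit. With the GC trend removed, Btrc alone was called (0.60, SE 0.08, limma adjusted p = 0.0025), beside 387 of all 13055 genes tested. Btrc encodes a ubiquitin ligase subunit that acts on PER proteins. In that fit Csnk1d had 0.13 (SE 0.06), Rora 0.02 (SE 0.07) and Bhlhe41 -0.14 (SE 0.08). Arntl turned to 0.11 (SE 0.07), Hlf had 0.31 (SE 0.10), Ciart 0.32 (SE 0.29) and Nfil3 0.04 (SE 0.11). In retina 0 of 19 were called, beside 0% of all genes tested. Arntl had 1746, 1659 and 1389 in Het retina, against 1496, 1425 and 1307 in KO retina. Of the 5 rhythmic retinal outputs, 4 were tested in rods and 0 called, beside the same 11.2% higher and 1.91% lower. The 6 glucocorticoid-responsive genes were read because corticosterone follows the day. Of these, 0 were called between genotypes in either fraction, beside the same shares in rods and 0% in retina.

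Of 9 immediate early genes and CREB targets, the class to which Per1 also belongs, 8 were tested between KO and Het rods. Of these, 5 were called higher (beside 11.2% of all genes tested) and 0 lower (beside 1.91%), and 3 were not called. The log2 fold changes of the 8 ran from -0.35 to 2.76, with a median of 0.83. Egr1 had 82, 189 and 62 in Het rods, against 1019, 564 and 460 in KO rods (log2 fold change 2.76, SE 0.54, limma adjusted p = 0.028). Fos had 112, 204 and 117 in Het rods, against 395, 322 and 287 in KO rods (log2 fold change 1.33, SE 0.23, limma adjusted p = 0.0053). Junb (2.23, SE 0.45), Sik1 (0.84, SE 0.20) and Nr4a1 (0.83, SE 0.18) were the other 3, and Junb had values of only 2 to 48. With the GC trend removed only Fos was called (1.29, SE 0.23, limma adjusted p = 0.015), beside 387 of all 13055 genes tested. Egr1 then had 2.29 (SE 0.53, limma adjusted p = 0.087). In retina 0 of 9 were called, beside 0% of all genes tested. Egr1 had 115, 252 and 98 in Het retina and 844, 432 and 377 in KO retina. These did not overlap, as for 3.5% of all genes. Its log2 fold change there was 1.85 (SE 0.42, unadjusted p = 0.0024 and adjusted p = 0.99998 from limma). The part of these genes and of the GC trend in the higher Per1 of KO rods was not tested.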

How the data were processed

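RNA-seq values of 12 libraries (4 groups of 3, rods and retina by genotype) were grouped by the genotype and tissue labels, with replicate numbers from the titles. The deposited table holds a signal, read counts which the authors multiplied by 1 factor per library and rounded (inferred from the values, since this step is not stated). The submitters' processing notes list CASAVA 1.8.2, HISAT2, DESeq2, edgeR and the build GRCm39, and the strand of counting is not given in the sources used here. The depth per library was estimated from the spacing of low values. The table held 0 columns of other samples. Because the values are scaled, no count model was used.

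Values were TMM-scaled on the genes tested, raised by a pseudocount of 2, transformed to log2 and compared with limma 3.58.1 (trend and robust options) in R 4.3.3, with only the groups compared in a fit and all 12 libraries in the interaction. A gene was tested where its values summed to 15 or more and 3 or more libraries had a value of about 10. All p-values in the text are two-sided, and with 3 libraries against 3 an exact permutation test cannot go below 0.1. GC content came from the longest protein-coding transcript of GENCODE M21 (GRCm38), matched by Ensembl identifier and known for at least 98.3% of genes tested, and the trend was removed with a smooth curve per library. Levels per length are deposited values per kilobase of that transcript at a library total of 1000000. Motifs were counted in RefSeq windows with Python. The same-numbered libraries of Het rods and Het retina deviated together (correlation 0.47, 0.41 and 0.25), so the numbers may pair them, and those of the other pairs of groups did not all do so.

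The 10 members were named by rule in all libraries. Of the other lists, genes past the threshold or of high level were named, and of the 3 members with the widest spread the 5 most similar genes. Arntl, Ciart, Nfil3, Csnk1d, Btrc and Bhlhe41 between genotypes, Aanat and Prkca are outside that rule, and were picked once their values had been seen. Some genes of the lists are counted but not reported here by name. The members and lists were chosen with earlier results of these data known. Alternatives were another scaling, other pseudocounts, no filter, a replicate block, GC trend removal, removal of rod-depleted genes and each library left out.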

Additional observations from a re-analysis of the deposited data

How the results depend on the processing

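With the GC trend removed, alone or with the replicate block, 1 clock gene was called in KO against Het rods in place of 2, and 387 or 467 of all genes in place of 1710. The median within-group SD of the clock genes was then 0.14 in place of 0.23. The same 2 settings turned the log2 fold change of Dbp to -0.56, of Tef to -0.10 and of Clock to 0.18 in KO against Het rods, and of Per1 to 0.33 in Het rods against Het retina. With library totals alone, Per3 turned to -0.0147, Cry1 to -0.0161 and Tef to -0.0616 in KO against Het rods, and Nr1d1 to -0.32 in KO rods against KO retina. The cause was not tested. With each library left out, 2 to 4 clock genes were called in KO against Het rods, the highest without Het rod replicate 2, 7 to 9 in Het rods against Het retina, 8 to 9 in KO rods against KO retina and 0 to 0 in the other 2 comparisons. Over all genes, KO against Het rods gave 888 (without Het rod replicate 1) to 1942 calls, Het rods against Het retina 5457 (without Het retina replicate 1) to 8747 and KO rods against KO retina 5875 (without KO retina replicate 1) to 9422. In these refits the log2 fold change of Per3 lay between -0.0105 and 0.147, of Cry1 between -0.00354 and 0.0929 and of Tef between -0.0194 and 0.0834 in KO against Het rods. In retina Per1 lay between -0.16 and 0.51, Nr1d1 between -0.21 and 0.46 and Nr1d2 between -0.24 and 0.11, and Nr1d1 between -0.22 and 0.27 in KO rods against KO retina, where Per1 lay between 0.17 and 0.72 and was called only without KO retina replicate 3. Among other settings than leave-outs, 41 of 43 counts of clock genes called stayed within 1.5 times. That limit takes in changes from 2 to 3 in KO against Het rods, by relative log expression scaling, library totals or the replicate block. In retina by genotype and in the interaction no gene at all was called in these settings, so those counts could not move. The replicate block called 3, 0, 7, 8 and 0 clock genes in the 5 comparisons, in the order given in the text for rods by genotype, retina by genotype, Het fractions, KO fractions and the interaction, adding Per2 (0.61) in rods and losing Per1 (0.61) in the KO fractions. A block within genotype, chosen after seeing the data, called 0 in the interaction.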
